A study of Mus musculus with 11 samples.

Results

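The 9 genes described here are mouse counterparts of genes that sort human uveal melanoma into a low-risk class 1 and a high-risk class 2: Htr2b, Ecm1, Raph1, Fxr1, Id2, Lmcd1, Lta4h, Mtus1 and Satb1. They were taken by symbol from a deposited table of 18756 mouse genes, and each symbol matched 1 row. All 9 passed the filter on low counts, which kept 17350 genes. RNA sequencing had been done on 11 skin tumours of C57BL/6 mice, harvested at end point from an engineered melanoma model. There were 5 tumours labelled GNA11 Q209L Bap1 KO, 4 labelled BRAF V600E Bap1 KO and 2 labelled GNA11 Q209L. GNA11 Q209L is an activating change of a G protein alpha subunit that is common in uveal melanoma, BRAF V600E is the frequent activating change of skin melanoma, and Bap1 encodes a nuclear deubiquitinase that is often lost in metastasising uveal melanoma. Not given in the sources used here were the age of the mice, the promoter that drives the transgenes and the cells in which Bap1 was deleted. Nothing in the labels says that each library came from a separate mouse, so p-values measure the spread between these tumours.

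Class 2 uveal melanomas usually carry inactivating changes of BAP1 and metastasise far more often than class 1 tumours. The clinical test compares class-discriminating genes with control genes and reads a tumour as class 2 where HTR2B and ECM1 are high and FXR1, ID2, LMCD1, LTA4H, MTUS1 and SATB1 are low, among others. RAPH1 is not among the genes of that test and is given no direction here. The genes have unlike roles: a serotonin receptor, a secreted matrix protein, transcription and chromatin regulators, an RNA-binding protein, an enzyme of leukotriene synthesis, and regulators of microtubules and actin. Setting GNA11 Q209L Bap1 KO tumours against GNA11 Q209L tumours asks whether they move in the human class 2 direction when Bap1 is labelled as knocked out under the same oncogene.

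Some properties of the libraries bear on every result. The libraries held between 18338100 and 81035100 counts (rounded). The whole-gene count of Bap1 did not show the labelled knockout: in CPM, reads scaled to a common library size after TMM adjustment, it was 102, 130, 103, 102 and 170 in GNA11 Q209L Bap1 KO tumours, 59.9, 57.6, 71.3 and 54.7 in BRAF V600E Bap1 KO tumours, and 85.1 and 137 in GNA11 Q209L tumours. The part of the gene that was deleted is not given in the sources used here, so this count checks no label. A repeated header line of the table lists the Bap1 status of BRAF V600E Bap1 KO replicates 2 and 4 as NA. GNA11 Q209L Bap1 KO replicates 1 and 2 share an identifier in their titles. The 12 melanocyte markers summed to between 78850 and 102095 CPM in GNA11 Q209L Bap1 KO tumours. The sums were 70519 and 68479 CPM in GNA11 Q209L tumours. Those of the BRAF V600E Bap1 KO tumours of this melanoma model were far lower, between 53.5 and 666 CPM. All 12 markers had reads in every BRAF tumour. Against each GNA11 genotype, all 12 had log2 fold changes towards lower levels in BRAF tumours, and 11 of the 12 had an edgeR adjusted p under 0.05. At that threshold 16.5% of all genes were lower in BRAF than in GNA11 Q209L Bap1 KO tumours. Between BRAF and GNA11 Q209L tumours 15.2% of all genes passed in either direction. In each comparison 1 marker did not pass, so the low sum does not stand for a called difference of every marker. The keratinocyte markers reached 13787 and 5266 CPM in BRAF V600E Bap1 KO replicates 3 and 4, and the 5 salivary gland markers in the table reached 174707 CPM in replicate 4 alone. Xist, which is transcribed from the inactive X chromosome of females, was at 0.706, 0.995, 695, 0.428 and 1.42 CPM in GNA11 Q209L Bap1 KO tumours, at 99.8, 0.920, 1224 and 0.262 CPM in BRAF V600E Bap1 KO tumours, and at 358 and 198 CPM in GNA11 Q209L tumours. It was thus high in both GNA11 Q209L tumours but in 1 of 5 GNA11 Q209L Bap1 KO tumours, so sex and the Bap1 label can hardly be told apart under GNA11 Q209L. In bulk tumours, fewer cells of a type and less RNA per cell cannot be told apart.

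Under the same oncogene, no classifier gene passed the test between GNA11 Q209L Bap1 KO tumours and GNA11 Q209L tumours: 0 of 9 had an adjusted p under 0.05 by edgeR's quasi-likelihood test, beside 0.0288% of all genes tested. DESeq2 and limma voom also called 0 of 9, beside 2.55% and 0.0288% of all genes. At an unadjusted p under 0.05 by edgeR, 2 of 9 passed (Lmcd1 and Satb1), beside 11.4% of all genes. Of the 8 genes with a human direction, 3 lay in the class 2 sense (Ecm1 higher, Lmcd1 and Mtus1 lower) and 5 in the class 1 sense. The libraries of the genotypes did not overlap for 3 of 9 genes, beside 16.6% of all genes: Lmcd1 and Mtus1 were lower in every GNA11 Q209L Bap1 KO tumour, as were 9.01% of all genes, and Lta4h was higher, as were 7.58%. With 5 tumours against 2 the smallest p of an exact two-sided permutation test is 0.0952, so that test cannot pass 0.05 here. The members' median log2 fold change was 0.02, against -0.00 over all genes tested.

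**Figure D1:**
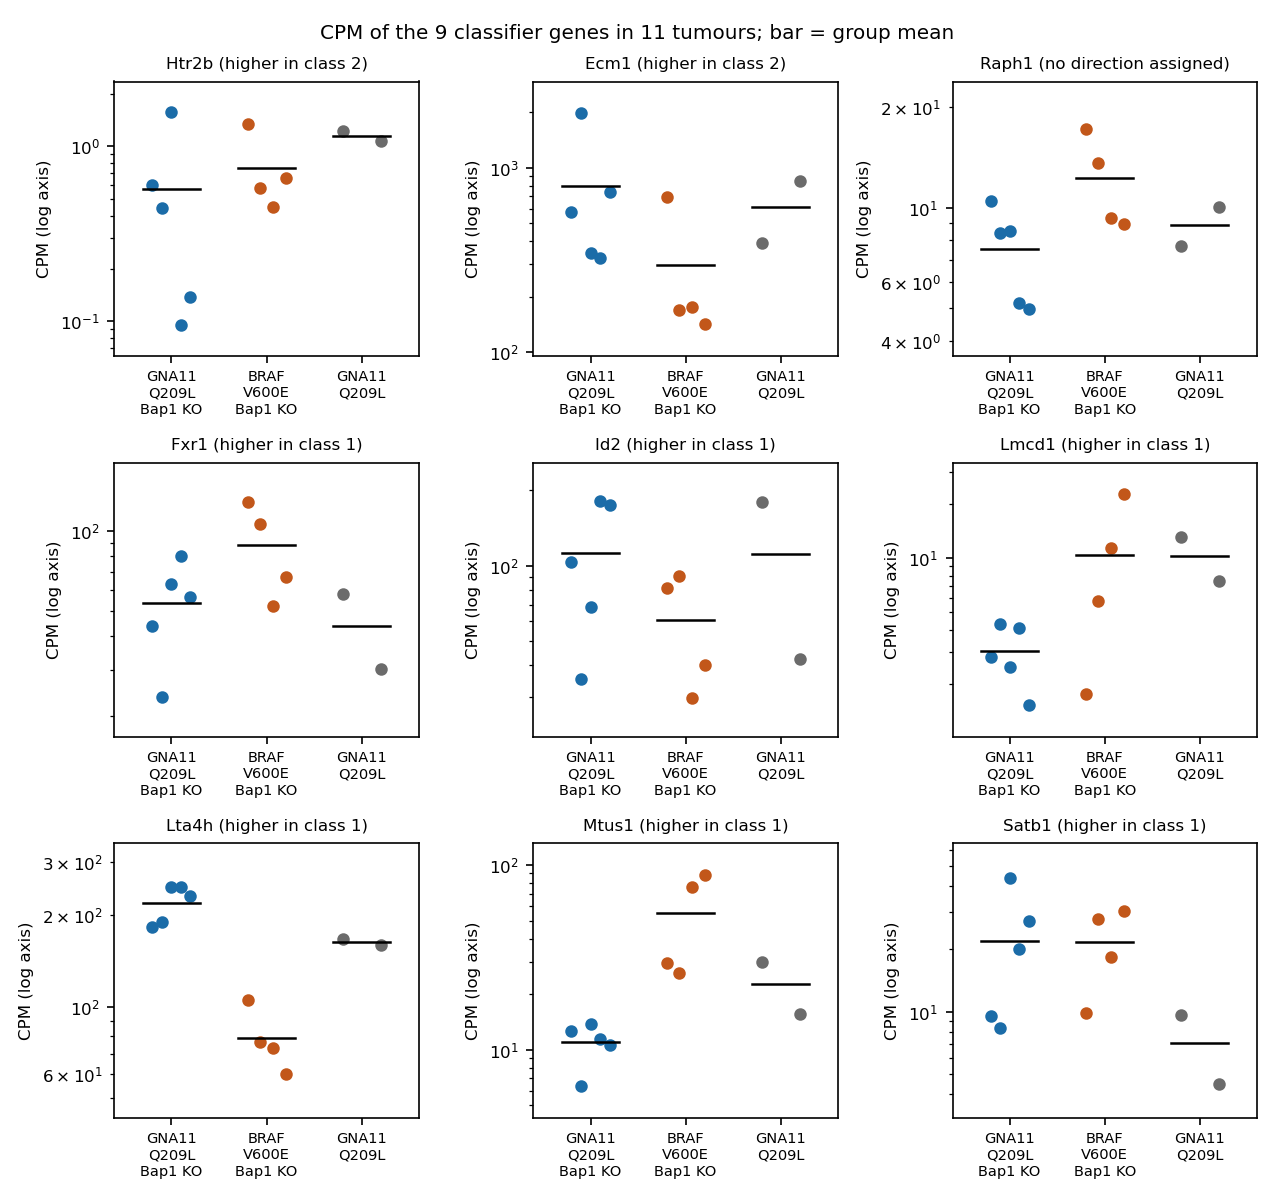
CPM (log axis) of each classifier gene in the 5 GNA11 Q209L Bap1 KO, 4 BRAF V600E Bap1 KO and 2 GNA11 Q209L tumours, 1 point per tumour, with the group mean as a bar. The GNA11 Q209L Bap1 KO points for Lta4h, between 183 and 247 CPM, lie above all others, and those for Mtus1, between 6.36 and 13.8 CPM, lie below all others.

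Htr2b, the serotonin 2B receptor and in human tumours a strong class 2 marker, was barely expressed. It had 0.597, 0.442, 1.57, 0.0952 and 0.138 CPM in GNA11 Q209L Bap1 KO tumours, against 1.23 and 1.07 CPM in GNA11 Q209L tumours. The BRAF V600E Bap1 KO tumours had 1.34, 0.579, 0.453 and 0.656 CPM. In reads this was 2 to 29 per GNA11 Q209L Bap1 KO library, where a floor of 3 reads is worth 0.0519 to 0.166 CPM depending on the library. Replicate 4, with 2 reads, lay below its own floor of 0.143 CPM. The means were 0.568 ± 0.597 CPM in GNA11 Q209L Bap1 KO tumours (SD, n = 5) and 1.15 ± 0.113 CPM in GNA11 Q209L tumours (SD, n = 2), the groups overlapped, and the direction was opposite to human class 2. The log2 fold change was -1.03 ± 0.90 (SE, edgeR adjusted p = 0.725), with a 95% interval from -3.02 to 0.95.

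Ecm1, a secreted glycoprotein of the extracellular matrix, had the highest level of the 9 per kilobase of exon. It reached 578, 1977, 343, 324 and 735 CPM in GNA11 Q209L Bap1 KO tumours, against 389 and 841 CPM in GNA11 Q209L tumours. The groups overlapped, and replicate 2 of the GNA11 Q209L Bap1 KO genotype stood far above the rest. The log2 fold change was 0.36 ± 0.84 (SE, edgeR adjusted p = 0.925) and was -0.35 without that library and -0.09 without GNA11 Q209L replicate 1. In the BRAF V600E Bap1 KO tumours it had 696, 168, 175 and 142 CPM, with replicate 1 far above the other three. Against them GNA11 Q209L Bap1 KO had a log2 fold change of 1.42 ± 0.68 (SE, edgeR adjusted p = 0.115), which became 2.29 (adjusted p = 0.0195) without BRAF V600E Bap1 KO replicate 1.

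Lmcd1, a LIM and cysteine-rich domain protein that represses the GATA6 transcription factor and is a class 1 gene, had its lowest mean in GNA11 Q209L Bap1 KO tumours. It had 2.82, 4.31, 2.49, 4.09 and 1.52 CPM in GNA11 Q209L Bap1 KO tumours, against 13.2 and 7.49 CPM in GNA11 Q209L tumours. Every GNA11 Q209L Bap1 KO tumour was thus below both GNA11 Q209L tumours, the class 2 sense. The log2 fold change was -1.76 ± 0.73 (SE, unadjusted p = 0.0354, edgeR adjusted p = 0.405). The BRAF V600E Bap1 KO tumours spread from 1.76 CPM in replicate 1 through 5.76 and 11.4 CPM to 22.8 CPM in replicate 4, so they reached below most GNA11 Q209L Bap1 KO tumours. Between these genotypes Lmcd1 passed the test (log2 fold change -1.77 ± 0.63, edgeR adjusted p = 0.0437) although the groups overlapped. That call did not survive limma voom (adjusted p = 0.317), summing the libraries of the shared identifier (adjusted p = 0.0694), or leaving out any single GNA11 Q209L Bap1 KO library, either GNA11 Q209L library, or BRAF V600E Bap1 KO replicate 3 or 4, with adjusted p from 0.0548 to 0.174. Without both BRAF libraries of NA status its adjusted p was 0.258.

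Mtus1, a microtubule-associated protein described as a tumour suppressor and a class 1 gene, also had its lowest mean in GNA11 Q209L Bap1 KO tumours. It had 12.6, 6.36, 13.8, 11.5 and 10.6 CPM in GNA11 Q209L Bap1 KO tumours, against 29.9 and 15.6 CPM in GNA11 Q209L tumours. All 5 GNA11 Q209L Bap1 KO tumours lay below both GNA11 Q209L tumours, again the class 2 sense, the nearest libraries standing at 13.8 and 15.6 CPM. The log2 fold change was -1.05 ± 0.49 (SE, edgeR adjusted p = 0.459). The level was 29.7, 26.1, 75.8 and 88.2 CPM in BRAF V600E Bap1 KO tumours, above all GNA11 Q209L Bap1 KO tumours. Mtus1 averaged 10.97 ± 2.84 CPM in GNA11 Q209L Bap1 KO tumours (SD, n = 5) and 55.0 ± 31.7 CPM in BRAF V600E Bap1 KO tumours (SD, n = 4), a 5.01-fold lower mean with a log2 fold change of -2.32 ± 0.42 (SE, edgeR adjusted p = 0.00288).

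Markers of several cell types also differed in level between these tumours. The 10 fibroblast markers, all with reads in every library, summed to 2453, 1637, 478, 600 and 465 CPM in GNA11 Q209L Bap1 KO tumours, to 3674, 3363, 23055 and 15381 CPM in BRAF V600E Bap1 KO tumours, and to 12036 and 3023 CPM in GNA11 Q209L tumours. The GNA11 Q209L Bap1 KO sums lay below all others, and the 3 tumours with the most Mtus1 were those with the highest fibroblast sums. Of these 3, GNA11 Q209L replicate 1 had 29.9 CPM of Mtus1. BRAF V600E Bap1 KO replicate 1 had nearly as much, 29.7 CPM, at a fibroblast sum of 3674 CPM. Within GNA11 Q209L Bap1 KO tumours the orders differed. Replicate 3 had the most Mtus1 (13.8 CPM) at a sum of 478 CPM, and replicate 2 the least (6.36 CPM) at 1637 CPM. The 9 keratinocyte markers summed to between 5.01 and 1663 CPM in GNA11 Q209L Bap1 KO tumours, between 168 and 13787 CPM in BRAF V600E Bap1 KO tumours, and to 12.6 and 6.64 CPM in GNA11 Q209L tumours. The 7 skeletal muscle markers summed to 5510 CPM in BRAF V600E Bap1 KO replicate 4, the tumour with the most Lmcd1 and Mtus1. Their sums were 12.2 to 203 CPM in the rest of that genotype and 1.18 to 82.8 CPM in GNA11 Q209L Bap1 KO tumours. In GNA11 Q209L tumours they were 4.48 and 3.03 CPM. All 7 were called lower in GNA11 Q209L Bap1 KO than in BRAF V600E Bap1 KO tumours, beside 24.7% of all genes. Between GNA11 Q209L Bap1 KO tumours and GNA11 Q209L tumours, 9 of 10 fibroblast markers had a negative log2 fold change and none passed the edgeR test, and the same held for 8 of 8 macrophage markers tested. The macrophage markers summed to between 211 and 1109 CPM in GNA11 Q209L Bap1 KO tumours, against 6282 and 664 CPM in GNA11 Q209L tumours. The 9 endothelial markers summed to between 400.4 and 565 CPM in GNA11 Q209L Bap1 KO tumours, against 1091 and 688 CPM in GNA11 Q209L tumours, and the 8 proliferation markers to between 130.1 and 499 CPM in GNA11 Q209L Bap1 KO tumours, against 51.0 and 77.6 CPM in GNA11 Q209L tumours. Neither sum overlapped between these genotypes, and no marker of either list passed the edgeR test. The part of these cell types and of proliferation in the levels of Lmcd1 and Mtus1 was not tested.

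**Figure D2:**
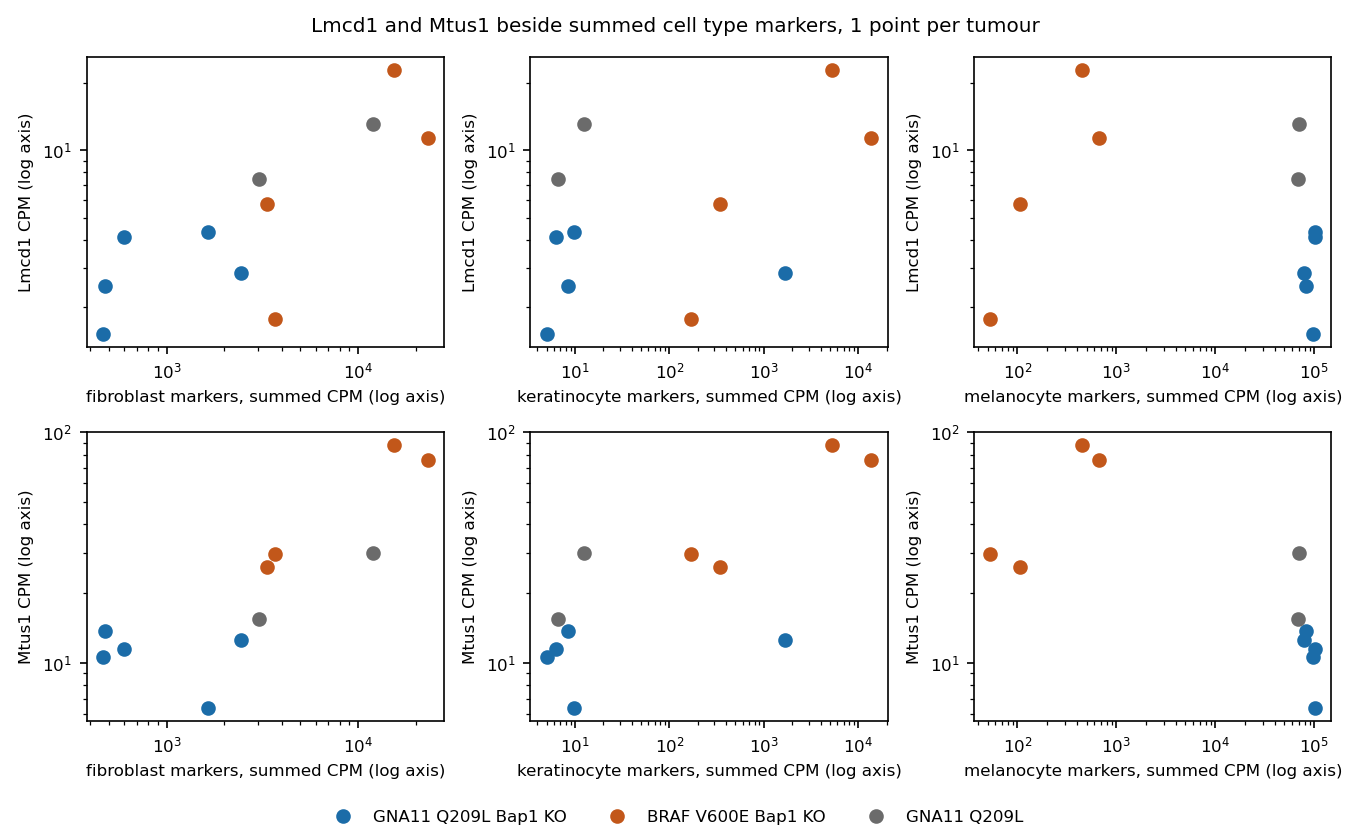
CPM of Lmcd1 (top row) and Mtus1 (bottom row) against the summed CPM of fibroblast, keratinocyte and melanocyte markers, with log axes and 1 point per tumour, coloured by genotype. The 5 GNA11 Q209L Bap1 KO tumours sit at fibroblast sums from 465 to 2453 CPM, to the left of every other tumour, and BRAF V600E Bap1 KO replicates 3 and 4, with 75.8 and 88.2 CPM of Mtus1, sit at the right.

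Lta4h, leukotriene A4 hydrolase, which makes leukotriene B4 and is a class 1 gene, lay the other way. It had 183, 191, 247, 247 and 231 CPM in GNA11 Q209L Bap1 KO tumours, against 167 and 160 CPM in GNA11 Q209L tumours. The genotypes did not overlap, in the class 1 sense, and the log2 fold change was 0.43 ± 0.26 (SE, edgeR adjusted p = 0.596). BRAF V600E Bap1 KO tumours had 106, 76.8, 73.2 and 60.2 CPM, below every GNA11 tumour. The mean of 220 ± 30.9 CPM in GNA11 Q209L Bap1 KO tumours (SD, n = 5) was 2.79-fold that of 79.0 ± 19.1 CPM in BRAF V600E Bap1 KO tumours (SD, n = 4), with a log2 fold change of 1.48 ± 0.21 (SE, edgeR adjusted p = 0.00106). BRAF V600E Bap1 KO was also below GNA11 Q209L, by a log2 fold change of -1.05 ± 0.26 (SE, edgeR adjusted p = 0.0276). The summed melanocyte markers separated the GNA11 from the BRAF tumours in the same way. Their sums were also higher in every GNA11 Q209L Bap1 KO tumour (78850 to 102095 CPM) than in the GNA11 Q209L tumours (70519 and 68479 CPM). The part of these markers in the level of Lta4h was not tested in either comparison.

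The RefSeq windows at the start sites of Lmcd1 and Lta4h are shown because these class 1 genes lay on opposite sides of GNA11 Q209L and were both called between GNA11 Q209L Bap1 KO tumours and BRAF V600E Bap1 KO tumours. Each runs from 250 bases before to 50 bases after the start (build GRCm38.p6), and 8 of the 9 members, all but Mtus1, had an entry. Capitals mark matches, on either strand, to 4 motifs: the general E-box CANNTG, the strong E-box written CACGTG, the M-box core written TCATGTG, and the cyclic AMP response element, TGACGTCA. Both specific E-box motifs also hold a match to the general one.
Lmcd1, chr6:112273508-112273807, plus strand: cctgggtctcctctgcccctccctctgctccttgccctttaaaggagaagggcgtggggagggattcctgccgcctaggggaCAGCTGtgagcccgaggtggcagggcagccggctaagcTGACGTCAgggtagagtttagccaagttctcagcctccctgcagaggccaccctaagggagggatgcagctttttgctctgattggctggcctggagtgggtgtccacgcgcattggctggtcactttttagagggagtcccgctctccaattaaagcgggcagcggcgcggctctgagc
Lta4h, chr10:93453146-93453445, plus strand: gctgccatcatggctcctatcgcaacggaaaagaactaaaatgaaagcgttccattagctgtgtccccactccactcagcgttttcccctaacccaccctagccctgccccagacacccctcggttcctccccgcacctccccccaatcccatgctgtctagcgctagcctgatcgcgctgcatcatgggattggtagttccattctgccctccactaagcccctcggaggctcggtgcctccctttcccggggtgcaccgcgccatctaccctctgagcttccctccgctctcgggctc
The strong E-box and the M-box core are bound by the melanocyte regulator MITF, and neither was found in any window of the 8 members. They occur in 7.15% and 3.77% of the 32851 promoter windows. The Lmcd1 window held the general E-box once, as 72.3% of all windows do at least once. It held the cyclic AMP response element once, as 1.79% of windows do, and this motif was added to the search after the Lmcd1 sequence had been read. The Lta4h window held none of the 4 motifs.

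Satb1, a chromatin organiser and class 1 gene, was the other member with an unadjusted p under 0.05 under the same oncogene. It had 9.501, 8.35, 44.0, 19.9 and 27.2 CPM in GNA11 Q209L Bap1 KO tumours, against 9.60 and 4.50 CPM in GNA11 Q209L tumours. Replicates 3, 4 and 5 of GNA11 Q209L Bap1 KO were higher than both GNA11 Q209L tumours, and replicates 1 and 2, which share an identifier, lay between them. The log2 fold change was 1.63 ± 0.73 (SE, unadjusted p = 0.0479, edgeR adjusted p = 0.438), the class 1 sense. BRAF V600E Bap1 KO tumours had 9.79, 27.8, 18.4 and 30.5 CPM, all above both GNA11 Q209L tumours (log2 fold change 1.61 ± 0.74, edgeR adjusted p = 0.143) and overlapping GNA11 Q209L Bap1 KO, whose log2 fold change against them was 0.01 with a 95% interval from -1.16 to 1.19.

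Id2, an inhibitor of E protein transcription factors and a class 1 gene, varied more within genotypes than between them. It had 104, 35.3, 68.5, 181 and 175 CPM in GNA11 Q209L Bap1 KO tumours, against 180 and 42.5 CPM in GNA11 Q209L tumours. BRAF V600E Bap1 KO tumours had 81.4, 91.3, 29.6 and 40.2 CPM, and all groups overlapped. The log2 fold change of GNA11 Q209L Bap1 KO was 0.02 ± 0.70 against GNA11 Q209L tumours (SE, edgeR adjusted p = 1) and 0.89 ± 0.58 against BRAF V600E Bap1 KO tumours (adjusted p = 0.228). Which of the GNA11 Q209L tumours was kept set the sign: the first value became 1.41 without replicate 1 and -0.63 without replicate 2.

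Fxr1, an RNA-binding protein of the fragile X family and a class 1 gene, had 43.7, 23.7, 62.8, 80.6 and 56.3 CPM in GNA11 Q209L Bap1 KO tumours, against 57.7 and 30.1 CPM in GNA11 Q209L tumours. These groups overlapped, with a log2 fold change of 0.28 ± 0.48 (SE, edgeR adjusted p = 0.887). Among the BRAF V600E Bap1 KO tumours it had 128, 106, 51.8 and 66.8 CPM, the upper pair above every GNA11 tumour. Raph1, lamellipodin, an actin regulator of the leading edge, had 10.5, 8.41, 8.55, 5.19 and 4.996 CPM in GNA11 Q209L Bap1 KO tumours, against 7.67 and 10.1 CPM in GNA11 Q209L tumours. The same gene had 17.3, 13.6, 9.30 and 8.92 CPM in BRAF V600E Bap1 KO tumours. Its groups overlapped in all comparisons, and its log2 fold change was -0.24 ± 0.42 against GNA11 Q209L tumours (SE, edgeR adjusted p = 0.892) and -0.71 ± 0.34 against BRAF V600E Bap1 KO tumours (adjusted p = 0.112).

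Divided by the merged exon length of each gene, the mean levels in GNA11 Q209L Bap1 KO tumours ran from 314 CPM per kilobase for Ecm1 through 46.2 for Id2, 36.0 for Lta4h and 8.15 for Fxr1 to 1.76 for Lmcd1, 1.15 for Satb1, 1.09 for Mtus1, 0.367 for Raph1 and 0.267 for Htr2b. In that order, the neighbours Id2 and Lta4h, those from Lmcd1 to Mtus1, and Raph1 and Htr2b overlapped between tumours. In BRAF V600E Bap1 KO, Lmcd1 and Mtus1 stood at 6.03 and 5.45 CPM per kilobase and Satb1 at 1.14. In GNA11 Q209L, Lmcd1, Mtus1 and Satb1 stood at 5.97, 2.25 and 0.371 CPM per kilobase.

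Between the oncogenes, with both genotypes labelled Bap1 KO, 3 of 9 members passed the edgeR test: Lta4h was higher in GNA11 Q209L Bap1 KO tumours, and Mtus1 and Lmcd1 were lower. Over all genes tested 41.2% passed, 16.5% higher and 24.7% lower, so the members' count is near the background. For 2 of 9 genes (Lta4h and Mtus1) the groups did not overlap, beside 31.8% of all genes. By the exact two-sided permutation test both had p = 0.0159, the smallest that 5 tumours against 4 allow, and p = 0.214 after adjustment over 27 tests of 9 genes in 3 comparisons. The members' median log2 fold change was -0.44, against -0.26 over all genes, with 4 in the class 2 sense and 4 in the class 1 sense. BRAF V600E Bap1 KO against GNA11 Q209L tumours differs in the oncogene and in Bap1, and uses libraries of both other comparisons. There 1 of 9 members passed, Lta4h, beside 15.2% of all genes (2 of 9, Lta4h and Mtus1, at an unadjusted p under 0.05, beside 36.5%), and Lta4h and Satb1 did not overlap, beside 41.9% of all genes. The call of Lta4h was lost without BRAF V600E Bap1 KO replicate 2 (adjusted p = 0.0505), without GNA11 Q209L replicate 1 (0.0925) or 2 (0.167), with the 2 genotypes alone (0.0907), with Xist as a covariate (0.0685), and without the libraries of NA status (0.126).

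**Figure D3:**
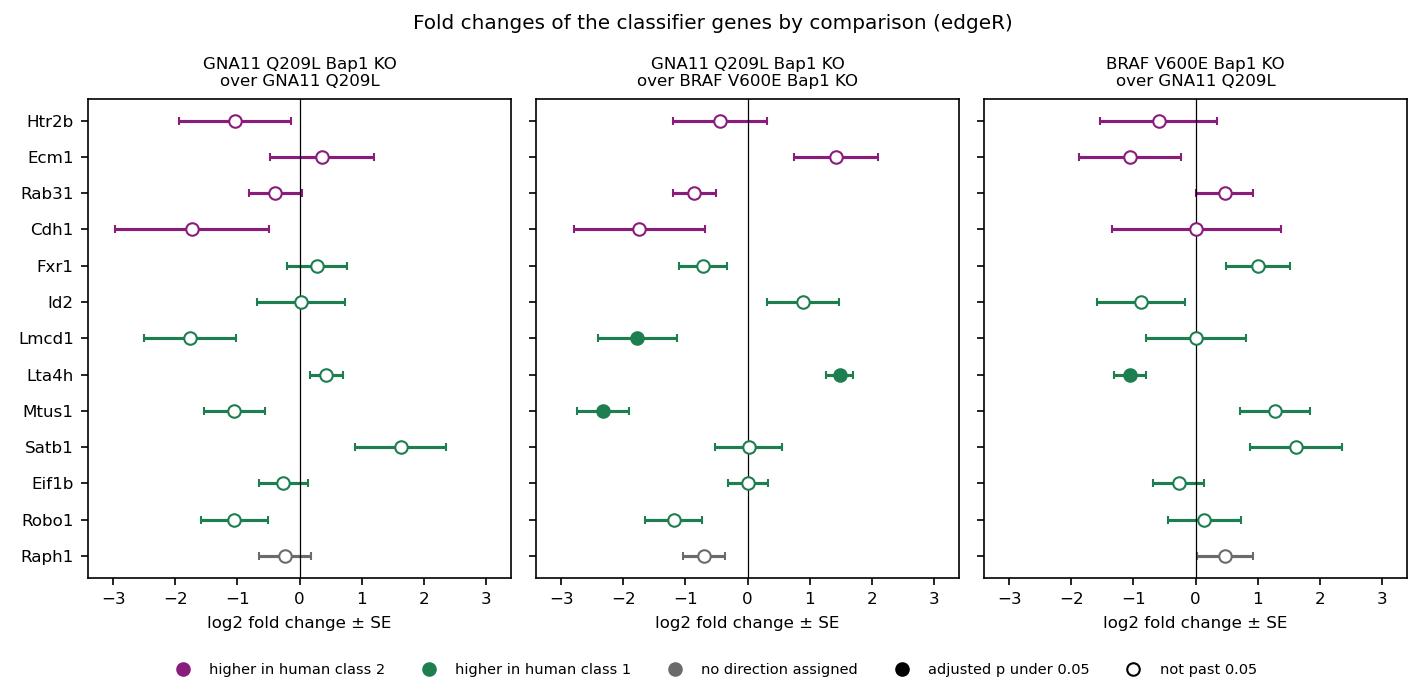
Log2 fold changes with their SE for the classifier genes and the remaining discriminating genes of the human assay in the 3 comparisons, coloured by the class in which the human gene is high; filled points had an edgeR adjusted p under 0.05. In the left panel no point is filled, and in the middle panel Lta4h at 1.48 and Lmcd1 and Mtus1 at -1.77 and -2.32 are filled.

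None of the remaining genes of the human assay passed the test with the Bap1 label. Rab31, a vesicle transport GTPase, and Cdh1, which encodes E-cadherin, are class 2 genes there, and their log2 fold changes between GNA11 Q209L Bap1 KO tumours and GNA11 Q209L were -0.39 ± 0.43 and -1.73 ± 1.23 (SE, edgeR adjusted p = 0.801 and 0.652). Cdh1 lay between 3.23 and 67.4 CPM in GNA11 Q209L Bap1 KO tumours, against 77.9 and 66.8 CPM in GNA11 Q209L tumours. Of 4 class 2 genes, 1 was higher and 3 were lower, with a median log2 fold change of -0.71; of 8 class 1 genes, 4 were higher and 4 lower, with a median of -0.12, and none of these passed the test. Among the class 1 genes, Robo1, an axon guidance receptor, had groups that did not overlap, with means of 11.2 ± 3.94 CPM in GNA11 Q209L Bap1 KO tumours (SD, n = 5) and 23.3 ± 1.81 CPM in GNA11 Q209L tumours (SD, n = 2) and a log2 fold change of -1.05 ± 0.54 (SE, edgeR adjusted p = 0.51). Eif1b, a translation initiation factor, had -0.26 ± 0.40. Among the control genes of the assay, Mrps21 had a log2 fold change of -0.20 ± 0.38 and Sap130 of 0.22 ± 0.22, and Rbm23 was not analysed here. Against BRAF V600E Bap1 KO tumours, Sap130 rose by 0.50 ± 0.18 (SE, edgeR adjusted p = 0.043), a call kept in 5 of 20 alternatives, while Robo1 at -1.19 and Rab31 at -0.85 had adjusted p of 0.0558 and 0.0714.

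A difference of means put the directions together for each tumour: the mean log2 CPM of Htr2b and Ecm1 minus that of the 6 class 1 members, higher towards class 2, with no test. It averaged -0.80 ± 1.21 in GNA11 Q209L Bap1 KO tumours (SD, n = 5), -1.46 ± 1.06 in BRAF V600E Bap1 KO tumours (SD, n = 4) and -0.23 ± 1.02 in GNA11 Q209L tumours (SD, n = 2). The GNA11 Q209L Bap1 KO tumours ran from -2.45 to 0.78, on both sides of the GNA11 Q209L values of -0.95 and 0.49. Htr2b at a few reads weighs heavily in it: with Ecm1 alone against the class 1 members the mean was 4.43 in GNA11 Q209L Bap1 KO tumours, 2.67 in BRAF V600E Bap1 KO tumours and 4.21 in GNA11 Q209L tumours. With the other assay genes included it was 0.08 in GNA11 Q209L Bap1 KO tumours, 0.11 in BRAF V600E Bap1 KO tumours and 0.91 in GNA11 Q209L tumours.

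**Figure D4:**
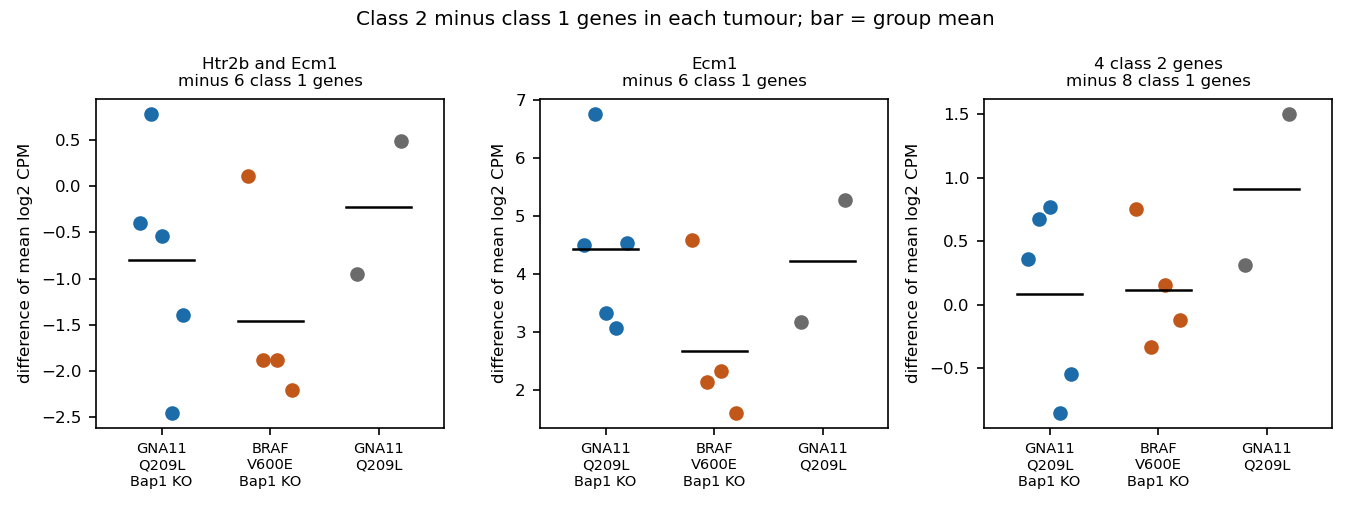
Mean log2 CPM of class 2 genes minus that of class 1 genes in each tumour, for Htr2b and Ecm1 (left), Ecm1 alone (middle) and all assay genes (right); points are tumours and bars group means. In the left panel the 5 GNA11 Q209L Bap1 KO tumours spread from -2.45 to 0.78 around the 2 GNA11 Q209L tumours.

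In the pathways around the single members, most calls lay in the comparison of oncogenes, as over all genes. Under the same oncogene, 1 gene of all these lists passed the edgeR test: Maoa, the enzyme that degrades serotonin, was lower, with 10.4 ± 1.89 CPM in GNA11 Q209L Bap1 KO tumours (SD, n = 5) and 68.4 ± 28.5 CPM in GNA11 Q209L tumours (SD, n = 2), with -2.71 ± 0.31 as its log2 fold change (SE, edgeR adjusted p = 0.0217). Maoa lies on the X chromosome, and its call was lost when any 1 GNA11 Q209L Bap1 KO or GNA11 Q209L library was left out (adjusted p from 0.0548 to 0.255), with the libraries of the shared identifier summed (0.102) and with Xist as a covariate (0.149), its log2 fold change staying between -3.02 and -2.21 over 20 alternatives. Of 12 genes of serotonin receptors, synthesis and transport tested, 1 passed as lower and 0 as higher; 9 had negative and 3 positive log2 fold changes, with a median of -1.15. Htr2a, a receptor of the same subfamily as Htr2b, had -1.63 ± 0.91 (adjusted p = 0.551). Against BRAF V600E Bap1 KO tumours, 6 of the 12 fell and 1 rose, beside 24.7% and 16.5% of all genes. Of the 6, Slc6a4 and Tph1 were called in 19 of 19 alternatives and Maoa in 20 of 20. Htr7 was called in 14 of 19 and Slc18a2 in 10 of 20. Htr1d, with at most 2 reads in any GNA11 tumour, was called in 9 of 15. Slc18a1, which rose, was called in 19 of 20. Slc6a4, the serotonin transporter, averaged 0.129 CPM in GNA11 Q209L Bap1 KO tumours and 6.14 CPM in BRAF V600E Bap1 KO tumours (log2 fold change -5.63, edgeR adjusted p = 0.0033). Tph1, which starts serotonin synthesis outside the brain, fell by 4.38 on the log2 scale (adjusted p = 0.00463). Neither gene had more than 11 reads in any GNA11 tumour, against 75 to 1136 (Slc6a4) and 21 to 410 (Tph1) in BRAF tumours. In GNA11 Q209L Bap1 KO libraries they had 0 to 7 and 0 to 6 reads. These calls thus rest on the BRAF libraries, and values near the floor of 3 reads leave the size of the folds uncertain.

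Among 10 genes of eicosanoid synthesis, Lta4h alone rose in GNA11 Q209L Bap1 KO tumours against BRAF V600E Bap1 KO tumours, 7 fell and 2 did not pass, where 16.5% of all genes rose and 24.7% fell. Alox5, the lipoxygenase that makes its substrate, averaged 0.236 CPM in GNA11 Q209L Bap1 KO tumours and 17.0 CPM in BRAF V600E Bap1 KO tumours (log2 fold change -6.21, edgeR adjusted p = 0.00129). Ptgs2, the inducible cyclooxygenase, lay between 0.111 and 1.09 CPM in GNA11 Q209L Bap1 KO tumours, against 588, 149, 17.0 and 1.88 CPM in BRAF V600E Bap1 KO tumours. Its log2 fold change was -8.48 (edgeR adjusted p = 0.00249), -6.72 without BRAF V600E Bap1 KO replicate 1, and not called by limma voom (adjusted p = 0.0719). Ptgs1 and Pla2g4a, the phospholipase that releases arachidonic acid, had log2 fold changes of -6.13 and -3.57 (adjusted p = 0.00106 and 0.00224). Under the same oncogene none of the 10 passed, 8 had negative values and the median log2 fold change was -1.61. Myeloid markers, whose cells are known for Alox5, summed to between 211 and 1109 CPM in GNA11 Q209L Bap1 KO tumours, between 528 and 2366 CPM in BRAF V600E Bap1 KO tumours and to between 664 and 6282 CPM in GNA11 Q209L tumours, and their part in these differences was not tested.

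Id2 was not among the called genes of its family. Against BRAF V600E Bap1 KO tumours, 4 of 7 Id and E protein genes fell and none rose, beside 24.7% and 16.5% of all genes: Id1 averaged 9.62 CPM in GNA11 Q209L Bap1 KO tumours and 60.2 CPM in BRAF V600E Bap1 KO tumours (log2 fold change -2.65, edgeR adjusted p = 0.00428), Id3 averaged 10.3 CPM in GNA11 Q209L Bap1 KO tumours and 249.9 CPM in BRAF V600E Bap1 KO tumours (-4.61, adjusted p = 0.00148), and the E protein genes Tcf4 and Tcf3 had -3.85 and -0.80 (adjusted p = 0.0028 and 0.0369). The call of Tcf3 was kept in 9 of 20 alternatives. Whether Id2 differed from Id1 and Id3 was not tested. Of 8 LIM and GATA genes tested, 6 fell and Prickle1 rose, with the same shares of all genes; Lmcd1 is among the 6 and was called in 8 of 20 alternatives, and Prickle1 in 10. Fhl2, a LIM-only cofactor, had -4.72 and Gata6 -5.93 (adjusted p = 0.000768 and 0.00164). Gata6 had 1 to 15 reads per GNA11 Q209L Bap1 KO library and 4 to 10 per GNA11 Q209L library. In BRAF V600E Bap1 KO libraries it had 25 to 1926 reads, spread from 0.852 to 21.6 CPM. Its call thus rests on the BRAF libraries, and the size of its fold is uncertain. Under the same oncogene 0 of the 7 and 0 of the 8 passed.

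In the microtubule list of 6, Mtus2, the paralogue of Mtus1, and Mapre1 rose against BRAF V600E Bap1 KO tumours and Mtus1 fell, where 16.5% of all genes rose and 24.7% fell. Mtus2 averaged 4.06 ± 2.06 CPM in GNA11 Q209L Bap1 KO tumours (SD, n = 5), 0.717 ± 0.0626 CPM in BRAF V600E Bap1 KO tumours (SD, n = 4) and 11.2 ± 1.39 CPM in GNA11 Q209L tumours (SD, n = 2), with a log2 fold change of 2.49 ± 0.47 between the Bap1 KO genotypes (SE, edgeR adjusted p = 0.00333). Mapre1, a plus-end microtubule protein, rose by 0.94 on the log2 scale (adjusted p = 0.00464). In the list around Satb1, Pml, which organises nuclear bodies, rose by 1.10 on the log2 scale (adjusted p = 0.00853). Of 9 actin regulators around Raph1, Evl and Pfn1 rose (1.15 and 0.95, adjusted p = 0.0166 and 0.0371), Pfn1 in 10 of 20 alternatives. Of 5 matrix partners of Ecm1, Mmp9 and Prg4 fell (-6.12 and -4.50, adjusted p = 0.012 and 0.00425). Prg4 had 4 to 8 reads per GNA11 Q209L Bap1 KO library. Replicate 1 of BRAF V600E Bap1 KO had 757 CPM of Mmp9 and the rest of that genotype 9.36 to 19.6 CPM, and without that library its log2 fold change was -2.22 (adjusted p = 0.0642). None of 5 fragile X family genes around Fxr1 passed, with Fxr1 itself at an unadjusted p of 0.0865 (adjusted p = 0.149). Under the same oncogene none of the genes of these 5 lists passed.

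The genes whose pattern over the 11 tumours was most like each member were found among 10314 genes by the root mean square difference of centred log2 CPM, given as a description. Fxr1 had the closest companions: Utp11l and Rsl1d1 at 0.15 and 0.19, where the median gene stood at 0.94. Lta4h was followed by Mtmr2, Stx12 and Iqgap1 at 0.19, 0.21 and 0.22, against a median of 0.88. Mtus1 was nearest to Snx16 and Prkab2 at 0.36 and 0.37, and Lmcd1 to Ypel2 at 0.52 and to Robo1, the class 1 gene of the same assay, at 0.58. For Raph1 the nearest was Psd at 0.27, for Ecm1 Ehd1 at 0.40, for Id2 Wbp5 at 0.48, for Satb1 Hdgfrp3 at 0.58 and for Htr2b Suox at 0.47. For scale, the standard deviation of log2 CPM over the tumours was 0.71 for Fxr1, 0.75 for Lta4h, 1.18 for Mtus1 and 1.23 for Lmcd1.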

How the data were processed

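The authors deposited 1 table of estimated counts per gene for 11 libraries, whole numbers with no normalisation. The submitters' processing notes name STAR and the build mm9. Not given in the sources used here were versions, the counting program, the annotation and strand handling. Of 18769 lines with an ID, 7 repeats were dropped and 6 transgene lines were kept out, and 21 symbols turned into dates were restored; 17911 IDs matched the gene name table. Expected counts were rounded, which changed nothing. All libraries were fitted together with edgeR 4.0.16 (R 4.3.3, TMM, default filter, quasi-likelihood test, genotype as the only term), with Benjamini-Hochberg adjustment over 17350 genes and a threshold of 0.05; SEs were derived from fold change and F. Log2 CPM used a prior count of 2. Exact permutation tests ran over tumours (SciPy 1.17.1, Python 3.11.15). DESeq2 1.42.0 and limma 3.58.1 were alternatives. The fit was also run on simulated counts with less spread than the common dispersion of 0.419 estimated here. That run does not show how the fit performs on these data. Exon lengths are merged GENCODE exons; promoters are RefSeq (GRCm38.p6), and no other coordinates are given. Intervals of fold changes come from the edgeR fit and include the spread between tumours, and read floors cover counting error only. Replicates are numbered in accession order, which pairs nothing. The genes named are the members, the other assay genes, up to 4 per list by p, and the nearest companions. Members, lists and naming rule were chosen with earlier results of these data known. One gene of the list around Satb1 is not reported here.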

Additional observations from a re-analysis of the deposited data

Results flagged for a closer look

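Of 32 groups of 4 or 5 tumours examined, 4 held a tumour whose gap to its nearest neighbour was large for the range of its group. Genes were judged on CPM without logs, where high values stand out more readily than on the log2 scale. The limit is set to flag about 1 in 20 groups of normally distributed values, which CPM need not follow, so 4 of 32 cannot be compared with that rate. Replicate 2 of GNA11 Q209L Bap1 KO had 1977 CPM of Ecm1, while it was 324 to 735 CPM in the other tumours of that genotype. Replicate 1 of BRAF V600E Bap1 KO had 696 CPM of Ecm1, against 142 to 175 CPM in the rest of that genotype. In the same tumour the difference of class 2 and class 1 means was 0.11, against -2.20 to -1.88 in the other BRAF V600E Bap1 KO tumours, and Ecm1 enters that difference. Replicate 3 of GNA11 Q209L Bap1 KO had 67.4 CPM of Cdh1, against 3.23 to 20.1 CPM in the other tumours of that genotype, near the 77.9 and 66.8 CPM of GNA11 Q209L.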

How the results depend on the processing

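No paired analysis was possible because the labels link no tumour of a genotype to a tumour of another genotype. Lta4h and Mtus1 in GNA11 Q209L Bap1 KO tumours against BRAF V600E Bap1 KO tumours were called in 20 of 20 alternatives, Lmcd1 in 8. No alternative called a member in GNA11 Q209L Bap1 KO tumours against GNA11 Q209L tumours. In the order GNA11 Q209L Bap1 KO tumours against GNA11 Q209L tumours, then against BRAF V600E Bap1 KO, then BRAF V600E Bap1 KO against GNA11 Q209L, leaving out 1 library moved the genes called to 0 to 13, 5448 to 7176 and 265 to 2867, the members called to 0, 2 to 4 and 0 to 1, and the difference of class means to -1.30 to 0.15, 0.27 to 1.19 and -1.96 to -0.51. In the first comparison 5 genes became 3 with RLE size factors or no filter, 20 with a stricter filter on CPM, 64 with the 2 genotypes alone, 443 with DESeq2, and 0 with the shared-identifier libraries summed or Xist as a covariate (1743 and 1303 at an unadjusted p under 0.05). Without the libraries of NA status, an alternative chosen after the data were seen, the second gave 3571 genes and the third 838. The third gave 5425 with DESeq2, 417 with the 2 genotypes alone and 1192 with the Xist covariate, and 0 members in the last 2 and without the NA libraries; edgeR's unadjusted p was under 0.05 for 2 of 9 with all libraries. The cause was not tested.

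Signs turned only for values that were not called. Against GNA11 Q209L, leaving out 1 library gave GNA11 Q209L Bap1 KO log2 fold changes of -0.35 to 1.12 for Ecm1, -0.42 to 0.038 for Raph1, -0.065 to 0.83 for Fxr1 and -0.63 to 1.41 for Id2, and differences of mean log2 CPM of -0.43 to 0.68 for Ecm1, -0.22 to 0.72 for Fxr1 and -0.91 to 1.17 for Id2; Id2 had -0.016 with the stricter filter and -0.44 with the Xist covariate. Satb1 against BRAF V600E Bap1 KO had -0.35 to 0.27 (-0.47 to 0.14 as a difference of means), and -0.10, -0.029 and -0.031 with the stricter filter, the 2 genotypes alone and the Xist covariate. For BRAF V600E Bap1 KO against GNA11 Q209L, Id2 had -1.56 to 0.51 (-1.72 to 0.36) and Lmcd1 -0.71 to 0.47 (-1.01 to 0.20); Lmcd1 had -0.93 with limma voom, -0.056 with the 2 genotypes alone, -0.050 with the summed libraries, -0.33 with the Xist covariate and -0.65 without the NA libraries, and Htr2b 0.066 with the Xist covariate. Where 1 GNA11 Q209L tumour was left, it was assumed to vary like the other groups. Htr2b was not tested under the stricter filter. With 2 to 29 reads per GNA11 Q209L Bap1 KO library, depth limits the values of Htr2b.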
